A study of Oryza sativa with 18 samples.

Results

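The 1000 regions described here are those whose chromatin was most open in the scutellum tissues of rice seed, out of 128764 accessible regions in a single-cell atlas of the plant. Each region is 501 bases wide. They were chosen by measured values: for every region, accessibility in each cell state of early seed and late seed was set against the mean of all states of that seed stage, and the 1000 regions with the highest mean difference over 4 columns were kept. These 4 columns are Scutelar_vascular_bundle and Scutellum of late seed and of early seed. The values in the seed columns therefore describe how the list was made and are given with no test. The columns of the other organs did not enter the choice.

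The scutellum is the shield-shaped part of the grass embryo that lies against the endosperm and is commonly taken as its cotyledon. It stores lipid and protein, and at germination its outer cell layer secretes hydrolytic enzymes into the endosperm and takes up the released sugars, amino acids and peptides. The vascular bundle of the scutellum carries these to the shoot and the root of the embryo axis. Open chromatin marks DNA that is free of nucleosomes and can be bound by transcription factors, and regions open in few cell types often act as promoters or enhancers there.

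The atlas rests on single-cell ATAC-seq: open DNA of each nucleus is cut and tagged by a transposase and then sequenced. All plants were of the genotype Nipponbare, the reference japonica cultivar of rice, and the tissue was fresh. The labels give late seed, early seed, early seedling, seedling, leaf, axillary bud, seminal root, crown root and panicle, which is 9 organs or stages with 2 libraries each and 16000 nuclei put into each library. The labels give no age in days for either seed stage, no dissection of the scutellum, and no mutant or treatment beyond fresh tissue. The authors grouped the nuclei into 128 cell states, 27 of them in seed (13 in late seed and 14 in early seed) and 101 in the other organs, and the deposited table has 1 column per state. A column pools the libraries of its organ, so its values have no replicate and no SD. Whether the names of the states match marker genes was not analysed here, since no genes could be placed beside the regions, and the states are called by the authors' labels, spelled as deposited.

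The values are CPM (counts per column scaled to a common total) on a log2 scale, and the highest CPM, 73.9, is the same in all 128 columns, so the authors had brought the columns to nearly 1 distribution. A difference in the total amount of open chromatin between states cannot be read from such values. The difference D used throughout is log2(CPM + 1) in a column minus the mean over all columns of the same organ or seed stage, so a positive D means more open than the organ's average state. For weak regions D understates the change. Depth per column is not given. As a stand-in, the count of different values that a column takes, which is small where few reads were counted, was 323 for Scutelar_vascular_bundle and 479 for Scutellum in late seed, and 655 and 1170 for the same tissues in early seed, against a median of 402.5 and a range of 51 to 2587 over the table.

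The mean D of the members ran from 0.84 to 1.48 with a median of 0.94, while the median of all regions was -0.02. Their mean CPM over the 4 scutellum columns had a median of 10.1, against 4.84 for all regions. In the other 23 seed columns the members had a median of 4.10 CPM, against 4.96 for all regions, and in the 101 columns outside the seed 3.62 CPM, against 5.16. At the median and averaged over columns, the members were more open than the typical region in scutellum. They were less open over the other seed columns and over the other organs. Single columns outside scutellum went the other way, among them both Epiblast columns, early seedling Large_parenchyma and leaf Bundle_sheath.

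The late seed columns gave the higher values. Members had a median D of 1.27 in Scutellum of late seed and 0.86 in Scutellum of early seed, with median levels of 12.7 and 7.85 CPM. In Scutelar_vascular_bundle the median D was 1.14 in late seed and 0.68 in early seed, with median levels of 11.4 and 6.93 CPM. D was above 0 in all 4 columns for 648 members, in 3 for 330 and in 2 for 22. It was above 1 in all 4 columns for 7 members, in 3 for 230, in 2 for 584, in 1 for 171 and in none for 8. Most members were above the average of the stage in all 4 columns, but past a D of 1 in only some of them. These columns chose the members and the shares over all regions were not analysed, so the counts only describe the list.

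The seed state closest to the scutellum columns was Epiblast, a small flap of tissue that faces the scutellum on the other side of the grass embryo. Its median D over the members was 0.84 in late seed, at 9.08 CPM, and 0.95 in early seed, at 8.10 CPM, which is above the value of the early Scutelar_vascular_bundle column. D was above 0 in both Epiblast columns for 914 members, against 32.0% of all regions, and above 1 in both for 287, against 1.5%. The mean D was higher in Epiblast than in the 4 scutellum columns for 444 members, against 48.2% of all regions. Epiblast enters the stage means that D is taken from, so these counts are descriptions. The highest D of the whole seed lay in 1 of the 4 columns for 764 members. It lay in late Scutellum for 349, in late Scutelar_vascular_bundle for 151, in early Scutelar_vascular_bundle for 231 and in early Scutellum for 33. It lay in an Epiblast column for 153. Since the 4 columns chose the members and the shares over all regions were not analysed, nothing is read from these counts of the highest D.

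Coleorhiza of late seed, the sheath around the embryonic root, had a median D of 0.18 over the members, and Coleoptile, the sheath around the shoot, had 0.07 in late seed and -0.19 in early seed. The growing points of the embryo axis were lower, at -0.15 in late seed and -0.26 in early seed for Radicle_meristem and -0.43 and -0.48 for Shoot_meristem. The lowest medians were in columns of the endosperm and its outer layer, the aleurone. Aleurone had a median D of -0.79 in late seed and -0.67 in early seed, Lateral_endosperm of early seed had -0.68, and Dorsal_lateral_endopserm of late seed had -0.63. D was above 0 in late Aleurone for 5.9% of the members and in early Aleurone for 7.6%, against 49.7% and 51.1% of all regions. Since D sets the columns of a stage against each other, some columns had to be low where the scutellum columns are high.

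**Figure D1:**
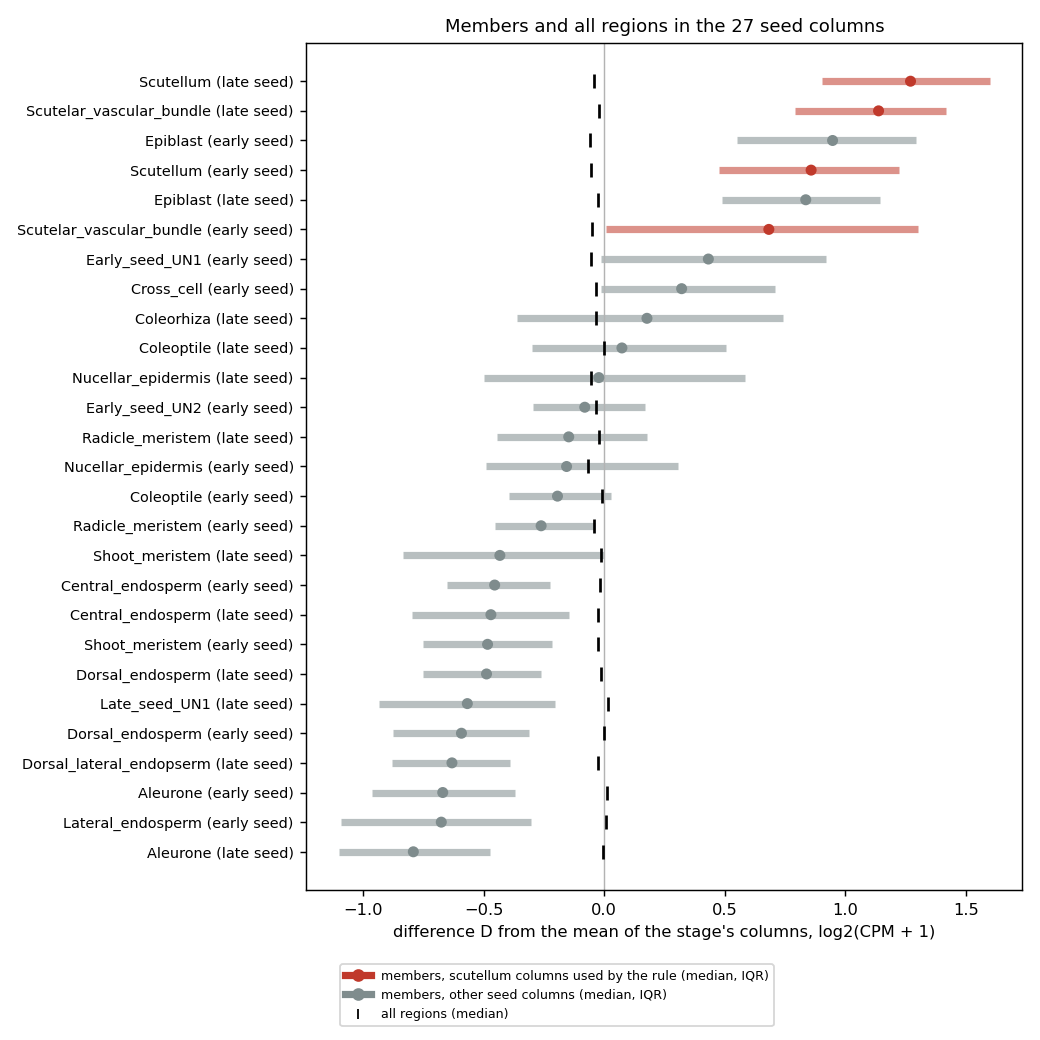
Difference D from the mean of the columns of the seed stage, on the log2(CPM + 1) scale, for the 1000 members in each of the 27 seed columns (dot, median; thick line, interquartile range), with the median of all 128764 regions as a black tick. Red marks the 4 columns that chose the members; both Epiblast columns (medians 0.84 in late and 0.95 in early seed) lie among them, and the 2 Aleurone columns (-0.79 and -0.67) lie at or near the bottom.

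The 10 regions at the top of the list show how different the profiles of members can be. The first, chr4:5840415-5840915, had 25.2 CPM in late Scutelar_vascular_bundle, 27.0 in late Scutellum, 30.2 in early Scutelar_vascular_bundle and 14.5 in early Scutellum. Outside the seed its median was 1.94 CPM and its highest value was 23.5 CPM, in the crown root state Crown_root_UN1, whose label names no cell type. This region was strong in all 4 scutellum columns and, outside the seed, nearly as strong in that root state.

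The second, chr8:9582269-9582769, was the most even of the 10. It had 9.93 CPM in late Scutelar_vascular_bundle, 12.7 in late Scutellum, 8.42 in early Scutelar_vascular_bundle and 9.56 in early Scutellum. Outside the seed its median was 0.86 CPM and its highest value 7.21 CPM, in Early_seedling_UN3, so every column of the other organs lay below each of the 4. This held for 60 of the 1000 members, and the share over all regions was not analysed. The third, chr11:8466605-8467105, had 8.74 and 9.25 CPM in the late vascular and Scutellum columns and 5.24 and 2.89 CPM in the early ones, with a maximum elsewhere of 11.3 CPM in leaf Mesophyll.

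Next came chr8:27481712-27482212, with 16.5 and 22.2 CPM in late Scutelar_vascular_bundle and late Scutellum and 10.9 and 11.4 CPM in their early counterparts. It reached 17.0 CPM in late Epiblast and 30.7 CPM in leaf Mesophyll, the photosynthetic tissue of the leaf. The fifth, chr9:9023070-9023570, went the other way between stages in the bundle. It had 4.16 and 9.25 CPM in the late vascular and Scutellum columns, against 24.5 and 14.9 CPM in the early ones, and no column outside the seed exceeded 4.21 CPM. It was open mainly in seed.

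The sixth, chr4:23751284-23751784, had 12.3 and 21.9 CPM in late Scutelar_vascular_bundle and late Scutellum, against 3.56 and 7.22 CPM in early seed, and 17.0 CPM in leaf Bundle_sheath. The seventh, chr10:11530830-11531330, had 14.5 and 17.7 CPM in the late columns and 21.1 and 8.94 CPM in the early ones, and at most 4.07 CPM outside the seed. The eighth, chr1:26880737-26881237, had 17.7 and 12 CPM in the late columns and 7.15 and 2.45 CPM in the early ones. Its highest value outside the seed was 15.9 CPM in crown root Columella, the gravity-sensing cells of the root cap.

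The ninth, chr8:7952958-7953458, had 7.50 and 10.7 CPM in late Scutelar_vascular_bundle and late Scutellum and 4.21 and 8.11 CPM in early seed, with 23.3 CPM in leaf Bundle_sheath. The tenth, chr3:30493373-30493873, had 19.9 and 16.6 CPM in the late columns and 9.56 and 13.9 CPM in the early ones, and its highest value elsewhere was 25.5 CPM in early seedling Large_parenchyma. In 4 of these 10 regions, the third, the fourth, the ninth and the tenth, the highest column of all lay outside the seed, and in the others it was a scutellum column.

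The bottom of the list was not set apart by a gap. The last region kept, chr10:12899364-12899864, and the first left out, chr9:17763270-17763770, both had a mean D of 0.84. The last region kept had 11.4 CPM in late Scutelar_vascular_bundle, 15 in late Scutellum, 3.65 in early Scutelar_vascular_bundle and 2.50 in early Scutellum. The first left out had 15.1 CPM in late Scutelar_vascular_bundle, 19.3 in late Scutellum, 1.09 in early Scutelar_vascular_bundle and 3.51 in early Scutellum. The members chr9:14158472-14158972 and chr2:27320710-27321210 and the regions chr5:29268833-29269333 and chr2:21156703-21157203, which were not kept, also had a mean D of 0.84.

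How far the stages and the tissues chose the same regions was looked at next. The 1000 regions chosen by the late columns alone and the 1000 chosen by the early columns alone shared 58, and they held 470 and 323 of the members. The overlap of unrelated lists of this size was not analysed, so the 58 is not read as little or much. The same columns chose the members, so the 470 and 323 only describe the list. Among regions chosen on the late columns, which the early columns had no part in, 7 had a D above 1 in both early columns, against 0.0256% of all regions. Their median D was 0.81 in early Scutellum, with 93.3% above 0, and -0.21 in early Scutelar_vascular_bundle, with 36.0% above 0. Over all regions, 42.3% and 44.5% were above 0 in these columns. Among regions chosen on the early columns, 43 had a D above 1 in both late columns, against 0.711% of all regions. Their median D was 0.32 in late Scutelar_vascular_bundle and 0.21 in late Scutellum.

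Across all 128764 regions, which share the libraries and the normalization and are not independent of each other, Pearson's r of D was 0.68 between late and early Scutellum and 0.18 between late and early Scutelar_vascular_bundle. Between the tissues of 1 stage it was 0.36 in late seed and -0.19 in early seed. Within the members these correlations are shaped by the choice on a sum, and they are not given.

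Differences between the tissues were counted where Scutelar_vascular_bundle and Scutellum differed by more than 1 on the log2(CPM + 1) scale in the same direction in both stages. Scutelar_vascular_bundle was higher in 70 members, against 1.04% of all regions, and lower in 81, against 1.46%. These counts use the columns that chose the members, so nothing is read from their excess. With a pseudocount of 5 they were 24 and 40. The 70 members led by the bundle had medians of 13.8 CPM in late Scutelar_vascular_bundle and 4.18 in late Scutellum, and 13.3 and 1.96 CPM in early seed. The 81 led by Scutellum had 4.68 CPM in late Scutelar_vascular_bundle and 15.9 in late Scutellum, and 2.53 and 12.2 CPM in early seed. Both Epiblast columns had a D above 1 in 1 of the 70 and in 19 of the 81, against 1.5% of all regions.

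**Figure D2:**
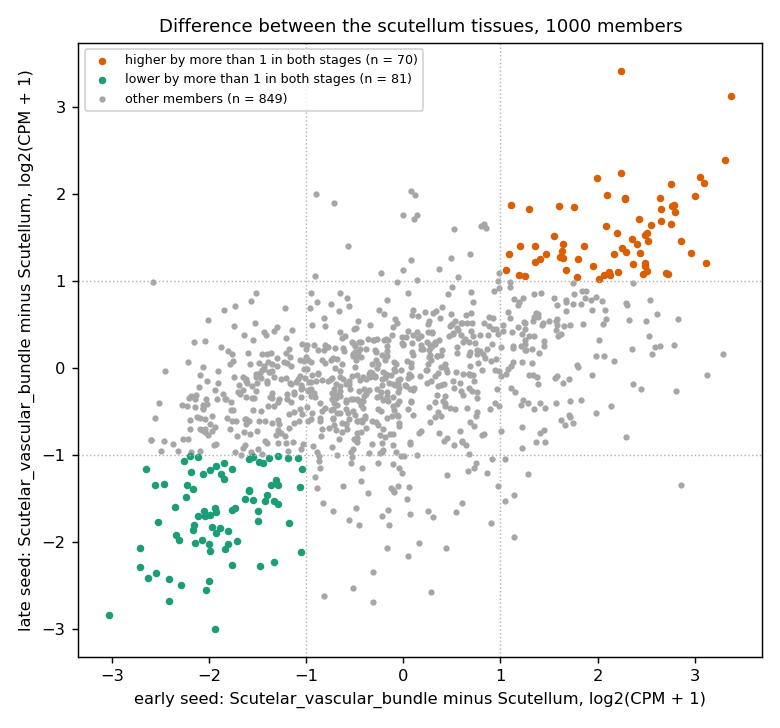
Scutelar_vascular_bundle minus Scutellum on the log2(CPM + 1) scale for the 1000 members, in early seed (horizontal axis) and late seed (vertical axis); dotted lines mark differences of 1 and -1. The 70 orange members lie above 1 in both stages, the 81 green members below -1 in both, and no member lies below -1 in early seed and above 1 in late seed.

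The largest difference in favour of the bundle was at chr11:1618355-1618855. It had 19.4 CPM in Scutelar_vascular_bundle and 1.33 in Scutellum of late seed, and 30.9 and 2.07 CPM in early seed. Late Coleoptile reached 20.5 CPM and Crown_root_UN1 11.6 CPM, and the median outside the seed was 1.17 CPM. The next, chr5:19792653-19793153, had 16.3 and 2.29 CPM in late seed and 14.3 and 0.54 CPM in early seed, with 24.8 CPM in leaf Bulliform, the large epidermal cells that roll the leaf. The region chr2:17486627-17487127 had 20.1 and 0.97 CPM in late seed and 6.76 and 0.64 CPM in early seed, and 31.6 CPM in Crown_root_UN2. All 3 had at most 2.29 CPM in Scutellum of either stage.

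The largest difference in favour of Scutellum was at chr1:7693695-7694195. Scutelar_vascular_bundle had 1.53 CPM and Scutellum 17.1 in late seed, and 1.09 and 16 CPM in early seed. Both Epiblast columns were low, at 1.63 and 3.11 CPM, and leaf Mesophyll had 33.4 CPM. The region chr11:24114556-24115056 had 0.98 and 11.7 CPM in late seed and 1.54 and 12.5 CPM in early seed, and no column outside the seed was above 3.84 CPM. The authors list it for Scutellum of both stages and for no other state. The region chr3:7979441-7979941 had 4.40 and 27.9 CPM in late seed and 2.63 and 21.4 CPM in early seed, and 38.6 CPM in leaf Mesophyll.

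A further 6 members, named after their values were seen, had Scutelar_vascular_bundle below Scutellum by more than 1 in late seed and above it by more than 1 in early seed, against 0.144% of all regions, and 0 had the opposite, against 0.0559%. These columns chose the members, so nothing is read from the counts. In chr3:7140221-7140721, for example, Scutelar_vascular_bundle and Scutellum had 1.78 and 6.05 CPM in late seed, against 17.7 and 1.58 CPM in early seed. The others lie at chr12:4564121-4564621, chr2:9012570-9013070, chr1:18823797-18824297, chr6:4790757-4791257 and chr1:23608104-23608604. In all 6 the bundle had at most 4.93 CPM in late seed, against 10.5 to 21.7 CPM in early seed.

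Differences between the stages ran mostly 1 way. Late seed exceeded early seed by more than 1 in both tissues in 146 members, against 3.15% of all regions, and was lower by more than 1 in both in 4, against 2.53%. The median late minus early difference was 0.54 in Scutelar_vascular_bundle and 0.56 in Scutellum, against 0.01 and 0.02 for all regions. These columns also chose the members, so the counts describe the list and nothing is read from them. With a pseudocount of 5 the counts were 43 higher and 0 lower.

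The largest late excess was at chr12:26487943-26488443, with 25.2 and 17.7 CPM in late Scutelar_vascular_bundle and late Scutellum, against 1.36 and 3.12 CPM in early seed. Late Epiblast had 23.3 CPM, no column outside the seed exceeded 5.02 CPM, and the authors list the region for the 3 late states alone. At chr4:34536783-34537283 the late values were 20.1 and 18.1 CPM, against 1.43 and 2.41 CPM in early seed. At chr3:4175497-4175997 they were 14.7 and 10.6 CPM, against 0.48 and 2.26 CPM. In all 3 the early columns had at most 3.12 CPM.

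The largest early excess was at chr6:4790757-4791257, with 0.70 and 3.66 CPM in late Scutelar_vascular_bundle and late Scutellum, against 20.3 and 8.69 CPM in early seed. At chr1:12772227-12772727 the late values were 1.78 and 3.20 CPM, against 24.5 and 7.26 CPM, and the authors list it for the 2 early scutellum states alone. At chr7:9153665-9154165 they were 0.70 and 0.79 CPM, against 19.4 and 1.34 CPM. This last region was open in a single column of the seed, early Scutelar_vascular_bundle, which was enough to place it among the members.

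**Figure D3:**
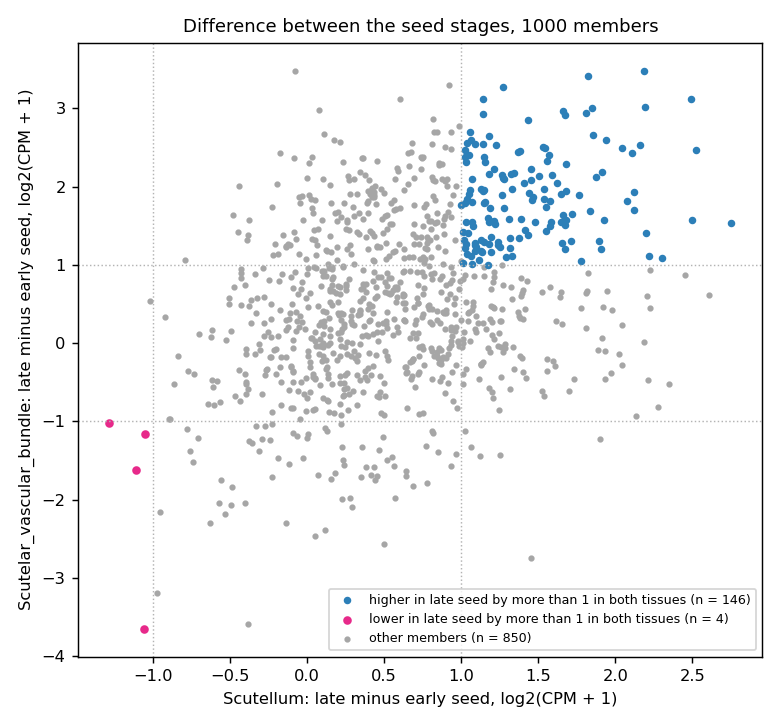
Late seed minus early seed on the log2(CPM + 1) scale for the 1000 members, in Scutellum (horizontal axis) and Scutelar_vascular_bundle (vertical axis); dotted lines mark differences of 1 and -1. The 146 blue members lie above 1 in both tissues and the 4 pink members below -1 in both.

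The columns outside the seed were not used to choose the members and give an independent view of where else these regions are open. The highest value of all 128 columns lay outside the seed for 547 members, in 1 of the 4 scutellum columns for 372 and in another seed column for 81. Leaf Mesophyll alone held the maximum of 104. Of the 128 columns, 101 lie outside the seed, and the shares over all regions were not analysed, so nothing is read from these counts. Relative to the mean of the organ, 41 of the 101 columns had a median D above 0 over the members.

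The highest columns came from the early seedling: Early_seedling_UN2 with a median D of 0.79, Large_parenchyma with 0.78 and Early_seedling_UN1 with 0.74. They were followed by Large_parenchyma of seedling (0.66), Mesophyll of seedling (0.55), Cortex of seminal root (0.54) and Cortex of crown root (0.39). The 2 Large_parenchyma columns had median levels of 6.45 CPM in early seedling and 5.25 CPM in seedling. Large_parenchyma and Cortex are names for ground tissue, the cells between the surface layer and the vessels. The medians of all regions in these columns lay between -0.10 and -0.02.

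The lowest columns were Epidermis (-0.51), Stomatal_precursor (-0.47) and Phloem_precursor (-0.42) of early seedling and Stele_initials of crown root (-0.40), which are surface layers and dividing or young cells. Panicle columns stayed within -0.17 and 0.15 and axillary bud columns within -0.17 and 0.34. Across the 101 columns, Pearson's r between the median D and the log2 count of different values was 0.26, a description over columns that share libraries. Early_seedling_UN2 and Early_seedling_UN1 had 180 and 195 different values, below the median of the table, and Large_parenchyma had 443 and 531.

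**Figure D4:**
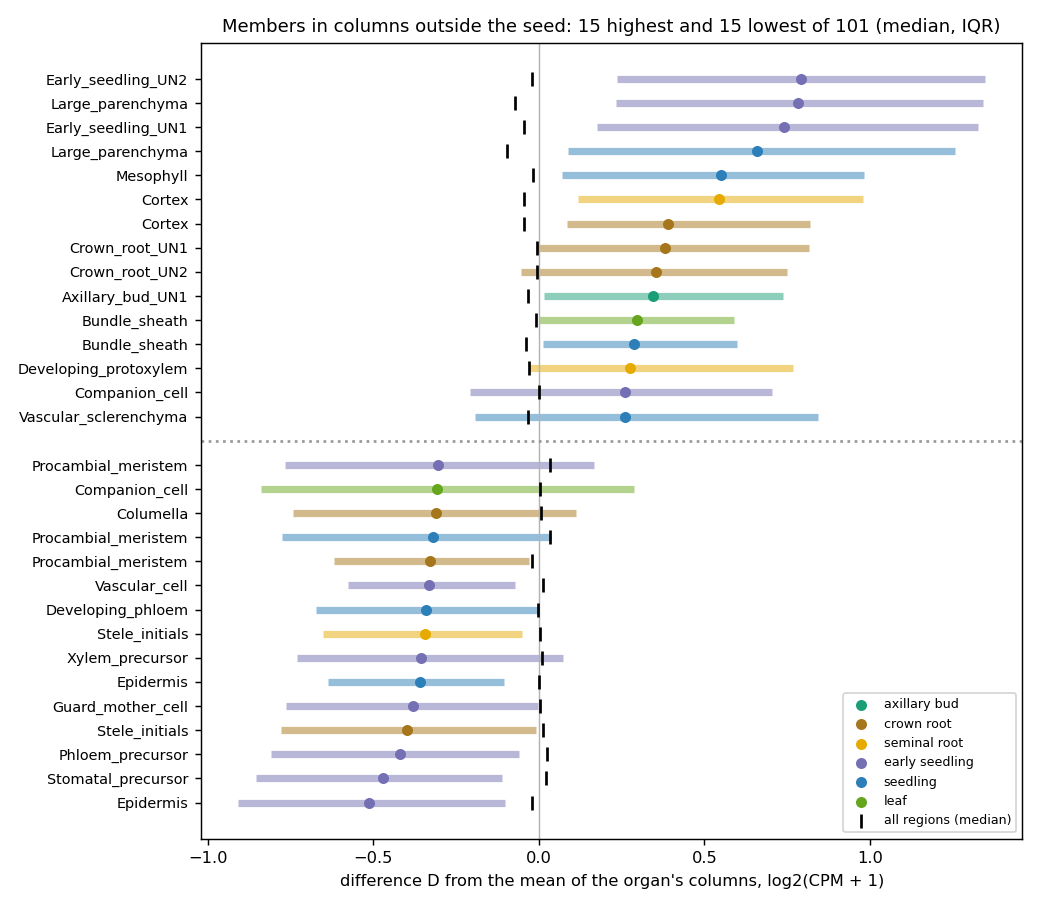
Difference D from the mean of the columns of the organ, on the log2(CPM + 1) scale, for the 1000 members in the 15 highest and 15 lowest of 101 columns outside the seed (dot, median; thick line, interquartile range; colour, organ), with the median of all regions as a black tick. Large_parenchyma and Cortex columns lie in the upper block (medians 0.39 to 0.78), and some of the Epidermis and Procambial_meristem columns and both Stele_initials columns in the lower block (-0.51 to -0.31), while Epidermis of leaf (0.00) and axillary bud (-0.08) and Procambial_meristem of axillary bud (-0.04) and seminal root (-0.22) do not.

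The same states recurred in related organs. D was above 1 in both Large_parenchyma columns, of early seedling and seedling, for 282 members, which is 28.2% against 3.96% of all regions. It was above 1 in Cortex of both root types for 128, against 1.17%, and in both Vascular_sclerenchyma columns for 109, against 3.66%. It was below -1 in Columella of both roots for 69, against 2.16%, in both Stomatal_precursor columns for 66, against 1.74%, and in Stele_initials of both roots for 38, against 0.759%. Each column is a single pooled value, so the shares carry no test. With a pseudocount of 5, which shrinks differences between low values, the share was 8.1% for Large_parenchyma, against 0.769% of all regions, and 2.5% for Cortex, against 0.139%.

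The outside columns with the highest values were not the same for the bundle-led and the Scutellum-led members. In the 70 led by Scutelar_vascular_bundle the highest medians of D were in Large_parenchyma of early seedling (1.27) and seedling (1.0) and in Crown_root_UN1 (0.98). Mesophyll of seedling and of leaf had -0.02 and -0.08 in these 70. In the 81 led by Scutellum the same Large_parenchyma columns had 0.13 and 0.02 and Crown_root_UN1 had -0.03. The highest there were Mesophyll of seedling (1.14), Early_seedling_UN2 (1.02) and Mesophyll of leaf (0.90). Both Large_parenchyma columns passed 1 in 31 of the 70 and in 2 of the 81, against 3.96% of all regions. The 146 members higher in late seed had their highest medians in Early_seedling_UN1 (1.06), Early_seedling_UN2 (0.94) and Large_parenchyma of seedling (0.89).

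The labels found in at least 4 organs outside the seed allowed a test with organs as the unit. In each organ the state with the label was set against the mean of the organ's other states, and limma tested whether the difference was 0 over organs, across all regions, with Benjamini-Hochberg adjustment at 0.05. Each of the 6 labels had 4 organs (axillary bud, early seedling, seedling and leaf), except Procambial_meristem with 5 (axillary bud, early seedling, seedling, crown root and seminal root). All 1000 members passed the filter of 1 CPM in at least 1 column. Early seedling and seedling have the same tissue label, and organs are not replicates of a condition. The p-values set the mean difference against the spread between these organs, which limma moderates with values of all regions, and hold for these organs only.

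Mesophyll was higher than the other states of the organ in 170 members, against 4.84% of all regions tested, and lower in 12, against 3.60%. Bundle_sheath, the layer around the leaf veins, was higher in 155, against 4.27%, and lower in 1, against 2.0%. The median difference over the members was 0.19 for Mesophyll and 0.24 for Bundle_sheath, against 0.00 and -0.02 over all regions. Leaving out seedling left 58 members called for Mesophyll, against 2258 regions of the whole table. It left 0 for Bundle_sheath, where no region of the table was then called and 281 members had an unadjusted p under 0.05. With early seedling and seedling averaged into 1 unit, 72 were called for Mesophyll and 0 for Bundle_sheath, against 2723 and 0 regions of the whole table.

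The other 4 labels had smaller counts of calls among the members. Companion_cell, which serves the sieve tubes of the phloem, was higher in 24, against 1.92%, and lower in 6, against 0.878%. Epidermis was higher in 4, against 2.74%, and lower in 10, against 1.06%. Vascular_cell was higher in 8, against 4.51%, and lower in 35, against 1.59%. Procambial_meristem, the cells that form the vascular tissue, was higher in 3, against 3.30%, and lower in 42, against 1.72%. The median differences were -0.05 for Companion_cell, -0.24 for Epidermis, -0.17 for Vascular_cell and -0.27 for Procambial_meristem.

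These counts, and those of the whole table, depended on single organs. Without seedling no member was called for Companion_cell, Epidermis or Vascular_cell and 3 were for Procambial_meristem, while 129, 109, 190 and 255 had an unadjusted p under 0.05. Of all regions of the table, 0, 0, 280 and 1752 were then called for these labels. Epidermis also lost all calls without early seedling or without axillary bud, where no region of the table was called. Without leaf it had 214, of which 200 lower, but 24306 regions of the whole table were then called. Procambial_meristem had 1 call without crown root and 8 without seminal root, against 1820 and 2862 regions of the whole table. Vascular_cell had 6 without early seedling and 27 without leaf, against 2214 and 7143. Without early seedling, Bundle_sheath had 36 calls, Mesophyll 73 and Procambial_meristem 22, against 1255, 2661 and 4939 regions of the whole table. Without axillary bud, Mesophyll had 97 and Procambial_meristem 71, against 3353 and 6426.

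Among the members led by Scutelar_vascular_bundle, Mesophyll was higher in 0 of 70, against 4.84% of all regions tested, and lower in 2, against 3.60%. Bundle_sheath was called in 0 of the 70, against 4.27% higher and 2.0% lower. With so few members, nothing is read from these low counts. Among those led by Scutellum, Mesophyll was higher in 42 of 81, against 4.84%, and Bundle_sheath in 26, against 4.27%. The median Mesophyll difference was -0.10 in the 70 and 0.83 in the 81. Whether the 2 groups of members differ was not tested.

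**Figure D5:**
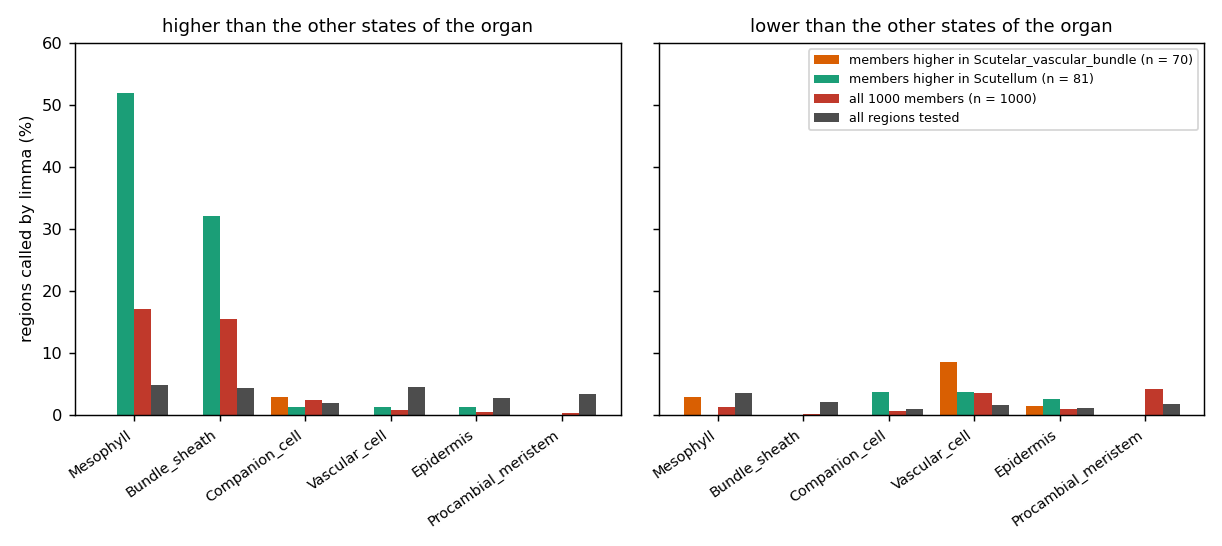
Share of regions (%) called by limma at an adjusted p of 0.05 as higher (left) or lower (right) than the other states of the organ, for 6 labels tested over 4 or 5 organs outside the seed. Bars show the 70 members led by Scutelar_vascular_bundle, the 81 led by Scutellum, all 1000 members and all regions tested. Mesophyll was higher in 0 of the 70, in 42 of the 81 and in 4.84% of all regions tested.

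The members with the smallest adjusted p in each direction show the sizes behind these counts. At chr1:7693695-7694195, the Scutellum-led region above, Mesophyll had 28.6 CPM in axillary bud, 29.3 in early seedling, 32.5 in seedling and 33.4 in leaf. The other states of those organs averaged 8.02 CPM, and the difference was 2.07 on the log2 scale (SE 0.14, adjusted p = 0.00156 by limma, higher in 4 of 4 organs). In Bundle_sheath the region had 20.1, 20.3, 21.2 and 23.9 CPM in the same organs, a difference of 1.51 (SE 0.12, adjusted p = 0.00720 by limma). The region was open in Scutellum of both seed stages and in green ground tissue, and had at most 1.53 CPM in Scutelar_vascular_bundle.

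At chr6:2295827-2296327 Mesophyll had between 0.46 and 1.54 CPM, against a mean of 4.57 CPM in the other states, a difference of -1.26 (SE 0.18, adjusted p = 0.00776 by limma, lower in 4 of 4 organs). This member had 4.40 and 4.86 CPM in late Scutelar_vascular_bundle and late Scutellum and 11.4 and 3.17 CPM in early seed, and its highest value elsewhere was 22.4 CPM in leaf Companion_cell. The only member lower in Bundle_sheath, chr3:34460045-34460545, had a mean of 0.37 CPM there, against 1.47 CPM in the other states (difference -0.45, SE 0.10, adjusted p = 0.0369 by limma). That call was lost under 7 of 10 other settings, among them every other scale of the values. It too peaked in leaf Companion_cell, at 25.5 CPM.

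Companion_cell was higher than the other states at chr9:2088927-2089427, with 19.7 CPM in axillary bud, 21.3 in early seedling, 23.1 in seedling and 29.4 in leaf. The other states averaged 7.01 CPM, a difference of 1.89 (SE 0.25, adjusted p = 0.00646 by limma). The same region was lower in Epidermis, at 1.40 to 3.46 CPM (difference -1.21, SE 0.14, adjusted p = 0.0118 by limma). In seed it had 10.4 and 16.6 CPM in late Scutelar_vascular_bundle and late Scutellum and 13.7 and 8.15 CPM in early seed. Its highest seed value was 22.0 CPM in late Radicle_meristem, above all 4 scutellum columns, and its highest value outside the seed was 29.6 CPM in seedling Vascular_parenchyma.

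Companion_cell was lower at chr3:22002255-22002755, at 2.77 to 5.51 CPM, against 10.7 CPM in the other states (difference -1.05, SE 0.23, adjusted p = 0.0298 by limma). That member was led by Scutellum, with 6.97 and 30.7 CPM in Scutelar_vascular_bundle and Scutellum of late seed and 6.44 and 23.3 CPM in early seed. Epidermis was higher at chr2:339162-339662, with 11.2 to 25.8 CPM, against 9.98 CPM in the other states (difference 0.80, SE 0.14, adjusted p = 0.0274 by limma). The 4 scutellum columns of this region lay close together, between 13.2 and 16.1 CPM.

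Procambial_meristem was lower at chr1:42873325-42873825, at 3.51 to 10.1 CPM, against 14.4 CPM in the other states (difference -0.67, SE 0.12, adjusted p = 0.0118 by limma, lower in 5 of 5 organs). It was higher at chr7:19342451-19342951 (difference 0.98, SE 0.20, adjusted p = 0.0214 by limma). Vascular_cell was lower at chr2:26010708-26011208 (difference -0.40, SE 0.07, adjusted p = 0.0136 by limma) and higher at chr7:1796801-1797301 (difference 0.64, SE 0.11, adjusted p = 0.0105 by limma). Of the 12 calls named here, 2, both for Mesophyll, were kept under every other setting of the fit, 10 were lost with early seedling and seedling, and seminal and crown root, averaged, and 9 were lost without seedling. The region called higher in Vascular_cell had 2.17 CPM in early Scutelar_vascular_bundle and 13.7 to 14.7 CPM in the other 3 scutellum columns.

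The range of openness outside the seed was wide. The members with the highest mean there were chr10:21867463-21867963, chr5:18695640-18696140 and chr5:19962911-19963411, with means of 20.9, 20.5 and 18.6 CPM over the 101 columns. The first was never below 7.59 CPM and reached 45.5 CPM in Early_seedling_UN2. Its scutellum values, between 15.4 and 24.7 CPM, were close to its average in the other organs, while the other seed columns had a median of 7.31 CPM. Such regions are high in scutellum only relative to the other seed states.

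The members with the lowest mean outside were chr5:14214805-14215305, chr3:27154240-27154740 and chr3:13830956-13831456, with means of 0.63, 0.63 and 0.62 CPM and maxima of 4.06, 2.34 and 1.99 CPM. The third had 13.2 and 9.12 CPM in late Scutelar_vascular_bundle and late Scutellum and 12.7 and 3.36 CPM in early seed, and 18.5 CPM in late Nucellar_epidermis, a layer of maternal seed tissue. The others had 1.53 to 7.67 CPM in the 4 columns, so part of their difference rests on low values. Among these 3, seed was the one place with values above 5 CPM.

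The authors' deposited list of regions called specific to cell states holds 947 of the members and not the other 53. It calls 565 of the 947 broadly accessible and 382 (40.3%) specific to 1 or more states, while 35.5% of all listed regions are called specific. For 364 members (38.4%) at least 1 of the 4 scutellum states is named, against 7.60% of the listed regions found in the table. All 4 states are named for 35 members, 3 for 112, 2 for 136 and 1 for 81. Such shares of all listed regions were not analysed, so nothing is read from this split. The states named most often were late Scutellum for 270 members, late Scutelar_vascular_bundle for 217, early Scutellum for 174 and early Scutelar_vascular_bundle for 168.

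Late Epiblast is named for 157 and early Epiblast for 150, and outside the seed seminal root Cortex is named for 68 and leaf Mesophyll for 56. These states have lists of unequal length. Members make up 1.46% of the regions listed for seminal root Cortex and 6.43% for leaf Mesophyll, against 0.896% of all regions listed as specific. They make up 10.5% for seedling Mesophyll (23 of 220) and 12.9% for early seedling Mesophyll (13 of 101), which are short lists. For the scutellum states the shares were 9.88% (late Scutellum), 8.38% (late Scutelar_vascular_bundle), 6.59% (early Scutellum) and 3.59% (early Scutelar_vascular_bundle). Of the members with a scutellum state, 28 name no state beyond the 4, and 250 members name at least 1 state outside the seed. The shares of all listed regions were not analysed for the 28 and the 250, so nothing is read from them. List and table come from 1 set of nuclei, so the list is a second description and no independent support.

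Coordinates are as in the files, counted from 1, on a genome build that the sources used here do not give. The members lie on all 12 chromosomes, at between 0.651% of the regions of chromosome 8 and 0.941% of those of chromosome 11. Some lie side by side: 272 had another member within 2000 bases (start to start) and 400 within 10000 bases, and the median distance to the nearest other member was 35834 bases. The nearest region of any kind was at a median of 822.5 bases from a member, against 905 bases over all regions. Neighbours within 2000 bases formed 124 runs, 106 of them of 2 members, 13 of 3, 4 of 4 and 1 of 5. How closely an equal number of other regions lie was not analysed, so nothing is read from the counts of neighbouring members and runs. Members in a run are not independent of each other.

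The longest run, named after its values were seen, spans chr2:17803776-17807873, where all 5 regions of the table are members. Their mean was 7.43 CPM in late Scutelar_vascular_bundle, 13.1 in late Scutellum, 2.08 in early Scutelar_vascular_bundle and 7.22 in early Scutellum. The 2 Epiblast columns averaged 7.22 CPM and the remaining seed columns 1.97 CPM. Outside the seed the highest mean was 9.17 CPM, in Large_parenchyma of early seedling. The first region of the list lies in a run of 3 at chr4:5839297-5841544, with 12.6 and 13.9 CPM in late Scutelar_vascular_bundle and late Scutellum, 15.7 and 5.57 CPM in early seed, and a highest mean outside of 12 CPM in Crown_root_UN1. The genes beside these runs were not analysed here.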

How the data were processed

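Per the labels, single-cell ATAC-seq libraries were made from sorted nuclei of fresh Nipponbare tissue, 2 per organ. The submitters' processing notes name BWA and MACS2 without their roles or versions. The sources used here do not give the genome build, filters, doublet treatment or how states were named. The authors deposited a log2-scale score per region and state, from -3.24 to 6.21. The name of the table gives CPM, and 2 to the power of a value was taken as CPM. Column sums of these ran from 1007548 to 1008613. A second deposited file names the cell states a region is called specific to.

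The members and lists were chosen with earlier results of these data known. The test had been planned for CPM values and the table held log2 values, so log2(CPM + 1), with a pseudocount of 1, was computed from them and the deposited log2 values were added as an alternative. Columns with no organ numbered 0, and no column carries a replicate number. Arithmetic used Python 3.11.15 with numpy 2.4.6 and pandas 2.3.3, and figures used matplotlib 3.10.9. For labels in at least 4 organs outside the seed, limma 3.58.1 in R 4.3.3 tested the differences over organs against 0 (moderated, two-sided, intensity trend) on regions reaching 1 CPM in at least 1 column, with Benjamini-Hochberg adjustment over all of them. It was also run on simulated data with known changes, in which organs varied independently, so that run does not cover related organs. Depth per column is unknown, so no counting interval is given.

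Regions named were the 10 members of highest mean D, the 3 on each side of the limit, the 3 extremes of the stage and tissue differences with 1 sign in both columns, the 3 highest and 3 lowest means outside the seed, and per label and direction the member with the smallest adjusted p. Gene positions, marker genes, gene lists, motifs and sequences were not analysed here. Alternatives were other pseudocounts, filters, thresholds, lists and left-out columns or organs.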

Additional observations from a re-analysis of the deposited data

Results flagged for a closer look

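At chr1:7693695-7694195 seedling stood apart from the other organs in Mesophyll and in Bundle_sheath. Each of these labels is among the other states that the other is set against, so the differences are not independent. Its Mesophyll difference was 2.46, against 1.91 in axillary bud, 1.96 in early seedling and 1.93 in leaf, and the gap to the nearest was 0.922 of the whole range. In Bundle_sheath its difference was 1.83, against 1.39, 1.42 and 1.40 in axillary bud, early seedling and leaf, with a gap of 0.933 of the range. At chr3:22002255-22002755 the Companion_cell difference was -1.59 in early seedling, against -0.90 in axillary bud, -0.80 in seedling and -0.93 in leaf, with a gap of 0.834. Each exceeds Dixon's limit of 0.829 for 4 values, which chance passes in about 1 of 20 groups, and the direction was the same in all 4 organs. The ratio was computed for all 12 named calls.

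At chr6:4790757-4791257 Scutelar_vascular_bundle differed from Scutellum by -1.46 in late seed and by 1.14 in early seed, so the sign differed between the stages. With 1 pooled column per tissue and stage, this difference was not tested.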

How the results depend on the processing

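No paired analysis was possible because the columns pool the libraries of an organ and carry no replicate number. Gene position and motif shares were not run. The list itself depended most on which columns chose it. Of the 1000 members, 342 were kept with the Scutellum columns only, 235 with Scutelar_vascular_bundle only, 323 with early seed only, 470 with late seed only, and 488 to 592 with 1 of the 4 columns left out.

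Members called by limma, higher and lower together, numbered 182 for Mesophyll, 156 for Bundle_sheath, 30 for Companion_cell, 14 for Epidermis, 43 for Vascular_cell and 45 for Procambial_meristem. Leaving out 1 organ gave 58 to 185 for Mesophyll, 0 to 210 for Bundle_sheath, 0 to 44 for Companion_cell, 0 to 214 for Epidermis, 0 to 36 for Vascular_cell and 1 to 71 for Procambial_meristem. Where 0 members were called, at most 280 regions of the whole table were, and the 214 for Epidermis stood beside 24306. Averaging related organs gave 72 for Mesophyll, 1 for Vascular_cell and 0 for the other 4, where 312 (Bundle_sheath), 176 (Companion_cell), 119 (Epidermis) and 179 (Procambial_meristem) had an unadjusted p under 0.05, and fewer units were tested. Over the whole table, averaging gave 2723 regions for Mesophyll, 571 for Vascular_cell and 186 for Procambial_meristem. It gave 0 for Bundle_sheath, Companion_cell and Epidermis. Without the intensity trend there were 120 for Mesophyll, 100 for Bundle_sheath, 18 for Procambial_meristem (4 higher and 14 lower) and 0 for Companion_cell and Vascular_cell, with 213 and 306 at an unadjusted p under 0.05. No region of the table was then called for Companion_cell or Vascular_cell. A pseudocount of 5 gave 99 for Bundle_sheath, 14 for Companion_cell and 6 for Epidermis. The deposited log2 values, an alternative chosen after seeing the data, gave 16 for Companion_cell and 23 for Vascular_cell (9 higher and 14 lower). A pseudocount of 0.1 gave 10 higher and 20 lower for Vascular_cell.

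Members higher in late seed in both tissues numbered 43 with a pseudocount of 5, 327 at a threshold of 0.5 and 7 at 2, and those lower 0, 21 and 0, with 7 at a pseudocount of 0.1 and 8 on the deposited scale. Members with Scutelar_vascular_bundle higher in both stages numbered 24, 143 and 7 under a pseudocount of 5 and thresholds of 0.5 and 2, and those lower 40, 193 and 11. The share with D above 1 in both Large_parenchyma columns was 8.1% with a pseudocount of 5 (0.769% of all regions). For Cortex it was 21.0%, 2.5% and 22.8% with pseudocounts of 0.1 and 5 and on the deposited scale, against 2.12%, 0.139% and 2.31% of all regions. The list made with a pseudocount of 5 had 22.3% of its listed regions named for a scutellum state. These last alternatives were chosen after seeing the data; the causes of these changes were not tested. For 43 named regions, 319 of 344 recomputed values of mean D moved by less than the SD over the 4 columns, 25 moved by more, and 0 changed sign. All these regions had a high mean D by the choice, and the SD reached 1.93 at chr11:1618355-1618855. Nothing is therefore read from these counts. The number of distinct values per column limits all levels, most in columns with few.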
